A study of Mus musculus with 6 samples.

Results

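*Ctbp1* and *Ctbp2* encode the C-terminal binding proteins, a pair of closely related corepressors. They are 2 of the 55487 genes of the deposited table and were taken by gene name. The pair was chosen by the levels of *Ctbp2*, which separate the groups in these libraries, so that the difference of either gene between the groups is given below as a description with no test. RNA-seq was performed on dental epithelium of mandibular first molars (M1) at PN2.5, in 3 libraries from *Wnt10a*flox/flox mice (*Wnt10a* fl/fl, control) and 3 libraries from *K14-Cre;Wnt10a*flox/flox mice (cKO). Both groups carry the floxed *Wnt10a* alleles, and Cre recombinase driven by the keratin 14 promoter, which is active in epithelial cells, is present in the cKO mice alone. Each library pooled dental epithelium from 4 molars according to the deposited design text, and the methods give a different number. The values are TPM, transcript abundances divided by transcript length and scaled to a fixed sum in each library, so that levels of different genes can be compared but the sequencing depth is unknown.

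CtBP proteins do not bind DNA by themselves. Transcription factors with a short binding peptide recruit them, and CtBP in turn brings histone deacetylases, histone demethylases and histone methyltransferases to the gene, which lowers transcription. They resemble metabolic dehydrogenases and bind NADH, which favors the assembled form. In Wnt signaling CtBP is known as a partner of TCF factors, and in Notch signaling it is part of the corepressor complex that RBPJ gathers when Notch is not active. CtBP1 also acts outside the nucleus in membrane fission, and *Ctbp2* encodes, from a separate start, the long protein RIBEYE of ribbon synapses.

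*Ctbp1* (ENSMUSG00000037373) lies on the minus strand of chromosome 5 of GRCm38 from 33247723 to 33274994, and *Ctbp2* (ENSMUSG00000030970) on the minus strand of chromosome 7 from 132987563 to 133124354. The GENCODE annotation lists 12 transcripts of *Ctbp1*, 8 of them protein coding, and 20 transcripts of *Ctbp2*, 12 of them protein coding. The reference transcripts were compared to see whether reads of one paralog could be taken for the other. The coding sequence of Ctbp1-201 has 1323 bases and that of Ctbp2-201 has 1335 bases, and 988 of 1313 aligned bases (75.2%) were identical. The longest run shared by both has 23 bases and lies at bases 154 to 176 of the *Ctbp1* coding sequence and 172 to 194 of the *Ctbp2* coding sequence. It stands in capitals in the stretches printed here, 5′ to 3′, around the closest match of the paralogs by unbroken identity:
Ctbp1, coding bases 124 to 206: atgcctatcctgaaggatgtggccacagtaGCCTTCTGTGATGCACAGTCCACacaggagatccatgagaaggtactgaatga
Ctbp2, coding bases 142 to 224: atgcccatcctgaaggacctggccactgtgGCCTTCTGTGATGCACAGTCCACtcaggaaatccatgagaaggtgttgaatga
No window of 30 bases was shared by these 2 transcripts, and neither paralog shared a window of 50 bases with any transcript of the other.

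The windows around the RefSeq starts of the paralogs differ in base composition. RefSeq (GRCm38.p6) gives 1 start for *Ctbp1* and 2 for *Ctbp2*, and the windows below run from 250 bases before a start to 50 bases after it on the minus strand, 5′ to 3′. They are shown as the sequence around these annotated starts, and whether they regulate the genes was not tested. Capitals mark the matches to 3 motifs searched on both strands, CTTTGA (the core of TCF/LEF sites), TGGGAA (the core of RBPJ sites) and CAGGTG (the E-box of ZEB factors).
Ctbp1, chr5:33274955-33275254: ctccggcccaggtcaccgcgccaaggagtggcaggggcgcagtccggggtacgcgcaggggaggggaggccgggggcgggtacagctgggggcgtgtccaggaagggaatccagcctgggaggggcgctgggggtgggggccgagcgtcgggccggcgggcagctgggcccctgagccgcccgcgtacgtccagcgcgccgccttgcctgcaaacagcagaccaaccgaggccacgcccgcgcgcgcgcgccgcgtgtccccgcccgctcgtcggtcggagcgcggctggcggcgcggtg
Ctbp2, chr7:133081811-133082110: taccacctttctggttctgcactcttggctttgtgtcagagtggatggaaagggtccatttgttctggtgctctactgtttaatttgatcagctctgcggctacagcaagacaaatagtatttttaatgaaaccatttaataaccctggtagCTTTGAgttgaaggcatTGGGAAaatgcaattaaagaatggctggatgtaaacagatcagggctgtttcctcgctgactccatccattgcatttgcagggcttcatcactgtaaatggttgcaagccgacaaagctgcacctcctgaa
The *Ctbp1* window is rich in CpG, with 43 CpG and 78.7% G or C, more CpG than 97.4% of 32851 promoter windows, and holds none of the 3 motifs. The *Ctbp2* start at 133081860 is also the first base of an inner exon of Ctbp2-201, and the bases before it are intron of that transcript. Ctbp2-201 begins at 133123367, which lies in none of these windows. The printed *Ctbp2* window holds 3 CpG and 43.7% G or C, more CpG than 23.3% of the windows. It has 1 match to CTTTGA with its first base at -98 and 1 match to TGGGAA with its first base at -81 from the start, both on the strand printed, and the matches do not overlap. CTTTGA occurs in 16.0%, TGGGAA in 25.6% and CAGGTG in 20.2% of all windows, and the motifs were picked with these genes in view. The other *Ctbp2* start, at 133015247, lies next to the first base of the long transcript Ctbp2-214, at 133015248. It has 8 CpG and 52.0% G or C in its window and none of the motifs. A match is a run of letters and was not tested as a binding site.

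*Wnt10a*, the deleted Wnt ligand gene, was measured at 55.96, 51.2 and 57.86 TPM in control replicates 1 to 3, while cKO replicates 1 to 3 held 22.69, 21.79 and 32.22 TPM. The groups did not overlap, and the mean of cKO was 46.5% of that of control. These values cover the whole gene and the tissue pool, and fewer cells of a type cannot be told apart from less RNA per cell.

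*Ctbp2*, the paralog with nuclear corepressor and synaptic forms, was lower in the cKO libraries. Control replicates 1 to 3 held 33.73, 30.28 and 35.89 TPM of *Ctbp2*, and cKO replicates 1 to 3 held 13.98, 16.59 and 12.74 TPM. The groups did not overlap, with 13.7 TPM between the lowest control and the highest cKO library. Of 13719 tested genes 9.64% had groups that did not overlap and 6.13% had them in the order of *Ctbp2*, the order by which it was chosen. The mean was 33.3 ± 2.83 TPM in control and 14.4 ± 1.97 TPM in cKO (SD, n = 3), and the cKO mean came to 43.4% of control. The log2 fold change on the log2(TPM + 1) scale was -1.16 with a standard error of 0.17. Leaving out any 1 library left it between -1.25 and -1.08. The labels call the libraries biological replicates, and the errors here measure the spread between these pools.

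*Ctbp1*, the paralog that also acts in membrane fission, differed little between the group means. Control replicates 1 to 3 held 97.1, 89.66 and 94.7 TPM, and cKO replicates 1 to 3 held 79, 95 and 101.94 TPM. The groups overlapped, and the lowest and the highest of the 6 values were both cKO libraries. The mean was 93.8 ± 3.80 TPM in control and 92.0 ± 11.8 TPM in cKO (SD, n = 3), a log2 fold change of -0.04 with a standard error of 0.15. Its sign depended on the processing, being 0.12 after a correction for transcript length and GC content, 0.03 with median-ratio scaling and 0.07 without cKO replicate 1. The coefficient of variation of *Ctbp1* was 4.05% in control and 12.8% in cKO, and that of *Ctbp2* was 8.50% and 13.6%.

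The balance of the pair was read within each library, where a common scale factor cancels. *Ctbp1* exceeded *Ctbp2* 2.88, 2.96 and 2.64 times in the control libraries and 5.65, 5.73 and 8.0 times in the cKO libraries. The ratio was higher in every cKO library than in any control library, with means of 2.83 ± 0.168 and 6.46 ± 1.34 (SD, n = 3). *Ctbp2* made up 26.2 ± 1.17% of the summed TPM of the pair in control and 13.7 ± 2.22% in cKO. Summed over the pair, control libraries held 130.8, 119.9 and 130.6 TPM and cKO libraries 92.98, 111.6 and 114.7 TPM, without overlap. Its mean was 127 ± 6.22 TPM in control and 106 ± 11.7 TPM in cKO. The log2 fold change of *Ctbp2* was lower than that of *Ctbp1* by 1.12, and this difference ranged from -1.21 to -0.96 over 15 other ways of processing.

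**Figure D1:**
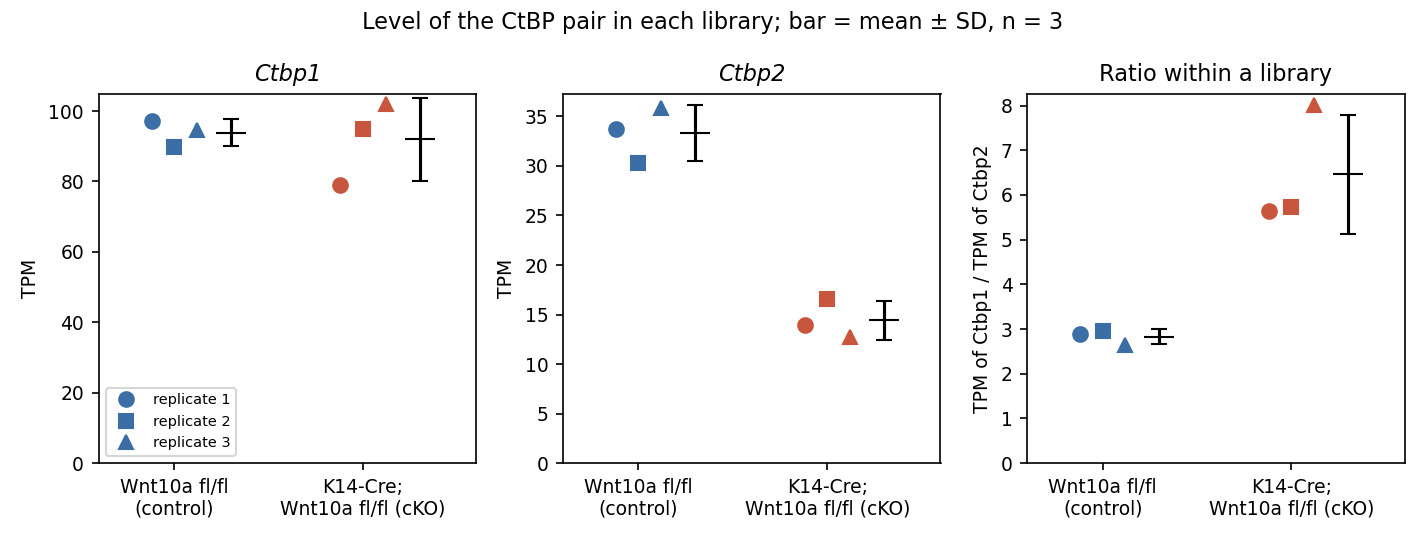
Level of *Ctbp1* and *Ctbp2* (TPM, linear axis from 0) and the ratio of the 2 levels in each library, for the 3 control libraries (blue) and the 3 cKO libraries (red). The symbol gives the replicate number, and the bar gives the mean ± SD of 3 libraries. *Ctbp2* lies at 30.3 to 35.9 TPM in control and 12.7 to 16.6 TPM in cKO, *Ctbp1* overlaps between the groups, and the ratio lies at 2.64 to 2.96 in control and 5.65 to 8.0 in cKO.

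The log2 fold change went down with transcript length over all genes, so the pair was set beside genes of like level and like length. The 13719 genes averaging at least 1 TPM were compared with limma, and their median log2 fold change was -0.07. Among 10 equal classes of protein-coding genes by longest transcript, the median log2 fold change went from 0.17 at 114 to 1392 bases to -0.30 at 6789 to 40378 bases. The longest transcripts of the paralogs are nearly equal, 3595 bases for *Ctbp1* and 3604 bases for *Ctbp2*, and both fall in the class of 3405 to 3922 bases, with a median of -0.10. By their reference transcripts, of 2279 bases for Ctbp1-201 and 2321 bases for Ctbp2-201, both would fall in the class of 1970 to 2471 bases, with a median of 0.00. On either length the paralogs share a class, and their log2 fold changes in it were -0.04 and -1.16.

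**Figure D2:**
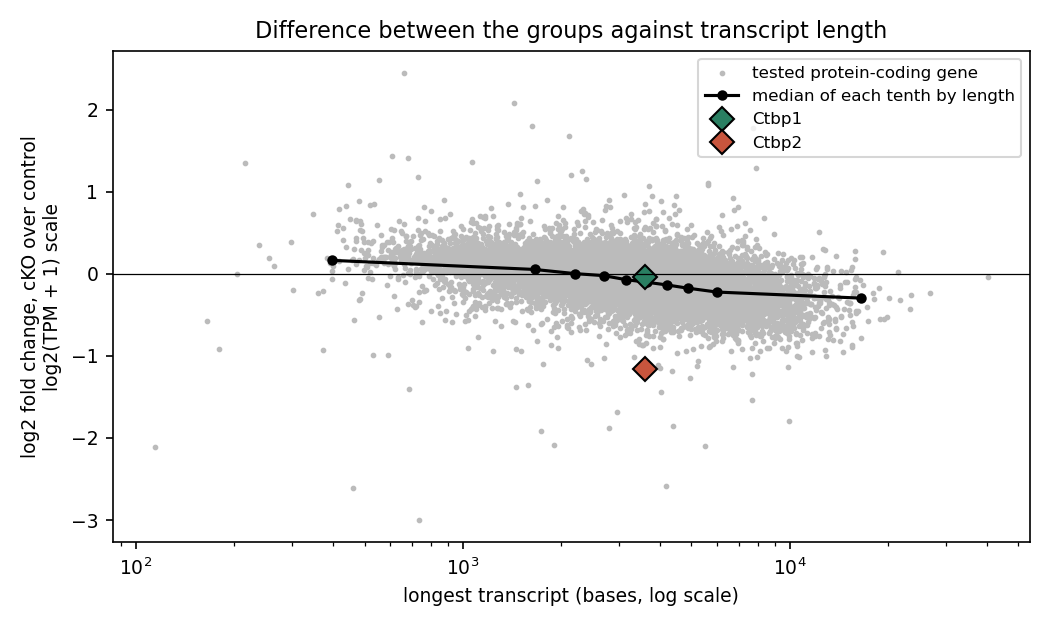
Log2 fold change of cKO over control on the log2(TPM + 1) scale against the length of the longest transcript (bases, log axis) for tested protein-coding genes (grey points). The black line joins the medians of 10 equal classes by length, which fall from 0.17 to -0.30, and the diamonds mark *Ctbp1* at -0.04 and *Ctbp2* at -1.16 at almost the same length.

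Length here is that of the longest transcript, 3604 bases for *Ctbp2* (Ctbp2-214), and no reference was drawn at the 2321 bases of Ctbp2-201. Of 538 protein-coding genes with both a level and a length like those of *Ctbp2*, the median log2 fold change was -0.11, the lowest was -0.79 and the highest was 0.88. None was as low as *Ctbp2*, and 43 of them (7.99%) had no overlap and lower cKO libraries. With level alone, 3 of 2090 genes were lower than *Ctbp2*, which were *Gm10131*, the heat shock gene *Hspa1a* and *Pkd1l1*. With length alone, *Cntn5* and *Cntnap5b* were lower among 2966 genes. *Ctbp1* sat within its own reference, where 104 of 161 genes (64.6%) of like level and length had a lower log2 fold change. Over all 13719 genes, 128 (0.933%) had a lower log2 fold change than *Ctbp2* and 7502 (54.7%) a lower one than *Ctbp1*. Corrected for length and GC content, *Ctbp2* was at -1.01 and *Ctbp1* at 0.12 on the log2 scale. The level of *Ctbp2* exceeded that of 75.4% of tested protein-coding genes in control and of 54.2% in cKO, whereas *Ctbp1* stood above 91.9% in both groups.

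*Ctbp2* shares sequence with another gene, *Fgfr2*, which encodes a fibroblast growth factor receptor used in epithelia. In the GENCODE annotation 1 of 27 *Fgfr2* transcripts, Fgfr2-217, begins within *Ctbp2*, and the nearest of the others begins 2721 kb away from it. The first 2 of its 7 exons, at 133123141 to 133123350 and 133081757 to 133081860 on chromosome 7, are also exons of *Ctbp2* and are untranslated in Fgfr2-217. They hold 314 bases, which are 12.9% of Fgfr2-217 and 13.5% of Ctbp2-201. Of the 20 *Ctbp2* transcripts 16 share bases with Fgfr2-217. The long coding transcript Ctbp2-214, of 2964 coding bases, shares none. The exon at 133081860 opens at the *Ctbp2* start whose window is printed above. *Ctbp1* shared no window of 50 bases with another gene, and *Ctbp2* shared 266 such windows with *Fgfr2* alone.

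Control libraries held 284.8, 409.8 and 621.0 TPM of *Fgfr2*, and cKO libraries held 1024, 625.9 and 651.1 TPM. The groups did not overlap, but control replicate 3 and cKO replicate 2 were nearly equal. The mean was 439 ± 170 TPM in control and 767 ± 223 TPM in cKO (SD, n = 3), a log2 fold change of 0.84 with a standard error of 0.32. The unadjusted p was 0.0328 and the Benjamini-Hochberg adjusted p over all genes was 1.00 by limma. The unadjusted p was 0.114 without control replicate 1, 0.0848 without control replicate 2 and 0.129 without cKO replicate 1. Between the group means *Fgfr2* was higher by 328 TPM in cKO and *Ctbp2* was 18.9 TPM lower. Reads from the shared exons fit both genes, and how they were divided between *Fgfr2* and *Ctbp2* in the deposited values was not tested.

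**Figure D3:**
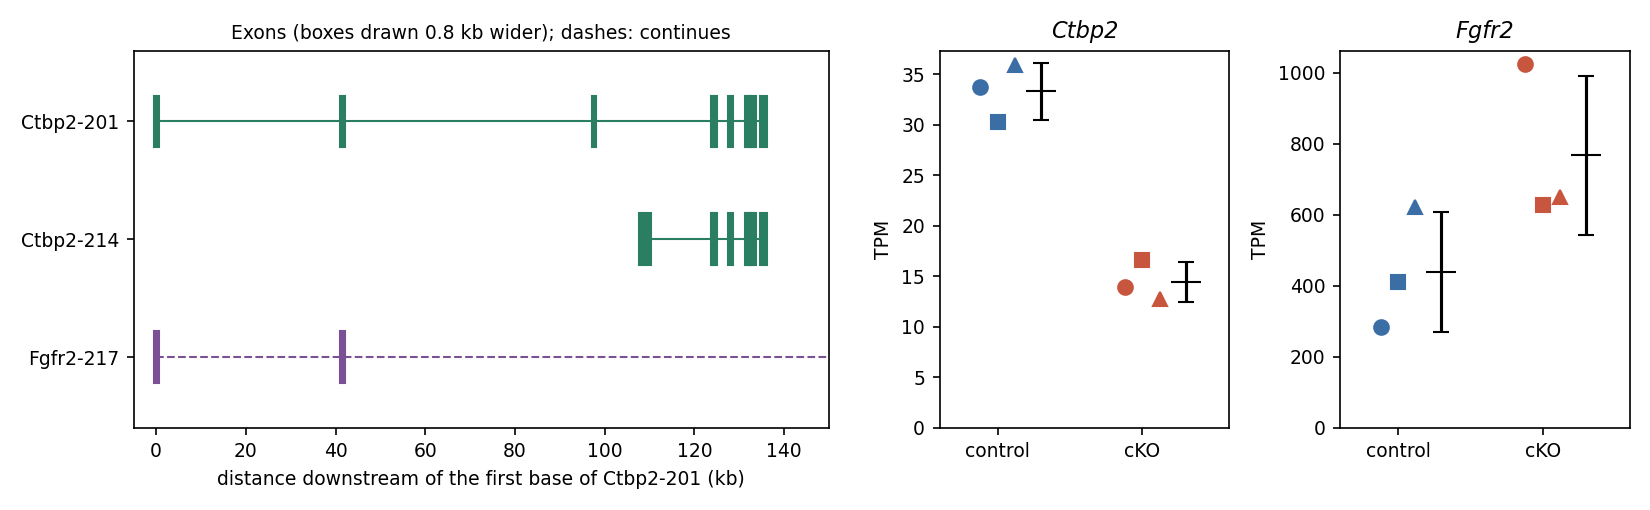
Left, exons of Ctbp2-201, Ctbp2-214 and Fgfr2-217 by distance downstream of the first base of Ctbp2-201 (kb), with boxes drawn wider than the exons for visibility and a dashed line where Fgfr2-217 runs on. Right, TPM of *Ctbp2* and *Fgfr2* in each library with mean ± SD of 3 libraries, in which *Ctbp2* is lower in every cKO library and *Fgfr2* reaches from 284.8 to 621.0 TPM in control and from 625.9 to 1024 TPM in cKO.

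The other genes around the pair either overlapped between the groups or were near 0. *Zranb1*, the protein-coding neighbor 1172 bases from *Ctbp2* on the other strand, had 18.3 ± 8.13 TPM in control and 20.3 ± 6.78 TPM in cKO (SD, n = 3), a log2 fold change of 0.18 with a standard error of 0.38. *Tex36*, the next gene on the other side at 462670 bases, was listed at 0 in all 6 libraries, and *B930086L07Rik*, which lies within *Ctbp2*, reached at most 0.07 TPM. Beside *Ctbp1*, *Maea* had 52.1 ± 1.76 and 50.7 ± 5.93 TPM and *Spon2* 2.67 ± 0.782 and 2.71 ± 0.995 TPM in control and cKO. The pseudogene *Gm43850* within *Ctbp1* was listed at 0 except for 0.15 TPM in cKO replicate 2. None of *Zranb1*, *Maea* and *Spon2* passed limma's unadjusted p of 0.05.

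The pair, its core complex and the list of Notch corepressors, which also holds the DNA-binding factor *Rbpj*, make 29 genes. Among these *Ctbp1* ranked second by mean TPM in both groups, behind *Tle5*, a short Groucho-family protein. In control the range of *Ctbp1*, 89.7 to 97.1 TPM, lay above that of the deacetylase *Hdac1*, 61.98 to 82.63 TPM, and just above that of *Hdac2*, 40.1 to 89.4 TPM. In cKO it overlapped that of *Hdac2*, 48.8 to 98.7 TPM. *Ctbp2* ranked 12th in control, where its range overlapped those of both neighbors, *Snw1* at 29.7 to 39.2 TPM and *Tle2* at 15.6 to 31.7 TPM. It ranked 17th in cKO, between *Ehmt1* at 10.92 to 22.01 TPM and *Rcor2* at 11.2 to 15.5 TPM, and overlapped both again. These orders use a scale per transcript length.

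Genes related to CtBP were counted from 6 lists written with earlier results of these data known. The lists hold partners of CtBP, genes it represses in other cells, ribbon synapse genes and related dehydrogenases. Of 79 genes 66 averaged at least 1 TPM, and 3 of these 66 were called, which means an unadjusted limma p below 0.05 with group means more than 20% apart. Over all 13719 genes tested, 4.02% were called by the same rule, 1.55% higher and 2.47% lower in cKO. By a Benjamini-Hochberg adjusted p below 0.05, 0 of the 66 and 0.0146% of all genes passed. All 3 calls were lower in cKO, but this direction depended on the processing. Quantile normalization gave 5 calls, with *Rcor2* and *Krt18* higher, and median-ratio scaling gave 4, with *Krt18* higher. The length and GC correction gave 1 call, *Krt18* higher, and the correction with the replicate number as a block gave 3, *Rcor2*, *Krt18* and *Rims1*, all higher. Leaving out 1 library gave 1 call without control replicate 1 (*Krt18* higher) and 1 without control replicate 2 or cKO replicate 2 (*Zeb1* lower). It gave 7 calls without control replicate 3, all lower, with *Hdac4*, *Nrip1*, *Ncor1* and *Tle4* added. It gave 5 without cKO replicate 3, all lower, with *Hdac5*, *Tle3* and *Jup* added, and 0 without cKO replicate 1.

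The core complex holds the enzymes and scaffolds found with CtBP on chromatin. Of its 12 genes 0 were called, and 0 passed an unadjusted p of 0.05, with 3 higher and 9 lower in cKO and a median log2 fold change of -0.18. *Hdac1*, a histone deacetylase, had 74.8 ± 11.2 TPM in control and 70.2 ± 6.81 TPM in cKO, and its relative *Hdac2* had 66.8 ± 24.9 and 74.3 ± 25.0 TPM (SD, n = 3). The histone demethylase *Kdm1a* had log2 fold change 0.05 and the histone methyltransferase *Ehmt2* had -0.21. No gene of the core complex had groups that did not overlap, as against 6.13% of all tested genes with every cKO library lower and 3.51% with every cKO library higher.

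Of 29 transcription factors and other proteins that recruit CtBP, 22 were tested, 3 were higher and 19 lower in cKO, and *Zeb1* and *Rreb1* were called lower, with a list median of -0.25. Of all tested genes 60.3% were lower in cKO. Groups did not overlap and were lower in cKO for 6 of the 22, *Zeb1*, *Rreb1*, *Hdac5*, *Mecom*, *Lcor* and *Glis2*, as against the 6.13% of all tested genes, and none of the 22 had this in the other direction. The lowest control and highest cKO values lay close for *Hdac5* (64.42 and 62.78 TPM), *Lcor* (18.17 and 17.94), *Glis2* (6.46 and 6.18) and *Mecom* (1.07 and 1). The median longest transcript of the list was 5438.5 bases, and the class of 5285 to 6786 bases had a median log2 fold change of -0.22. No share without overlap was taken for genes of like length. After the length and GC correction 6 of the 22 were higher and 16 lower. *Zeb1*, a zinc finger repressor of epithelial genes, had control values of 4.02, 2.81 and 3.41 TPM and cKO values of 1.23, 2.28 and 0.96 TPM. Every cKO library was lower, and the log2 fold change was -0.85 with a standard error of 0.28 (limma, unadjusted p = 0.0190, adjusted p = 1.00). *Rreb1*, a zinc finger factor of Ras-responsive genes, had control values of 11, 13.08 and 8.21 TPM and cKO values of 5.17, 5.82 and 7.41 TPM. Its groups did not overlap, and the log2 fold change was -0.71 with a standard error of 0.24 (limma, unadjusted p = 0.0188, adjusted p = 1.00). *Hdac5*, the highest of the list, had 69.9 ± 4.80 and 55.2 ± 7.54 TPM, with every cKO library lower and an unadjusted p of 0.0701 by limma. *Rbbp8*, a DNA end resection factor, had 45.6 ± 18.1 and 38.7 ± 10.4 TPM (SD, n = 3). The TCF factors *Tcf7l1* and *Tcf7l2* had log2 fold changes of -0.25 and 0.11. The call of *Zeb1* was lost without control replicate 1, cKO replicate 1 or cKO replicate 3, and that of *Rreb1* without control replicate 1, control replicate 2, cKO replicate 1 or cKO replicate 2.

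Of 15 genes listed as Notch corepressors beside CtBP, a list that also holds the DNA-binding factor *Rbpj*, 5 were higher and 10 lower in cKO. The median was -0.18, and *Spen* was called lower. *Spen*, the large RBPJ-binding corepressor, had control values of 10.31, 12.31 and 6.06 TPM and cKO values of 4.19, 4.42 and 6.85 TPM. The groups overlapped through control replicate 3 and cKO replicate 3, and the log2 fold change was -0.76 with a standard error of 0.30 (limma, unadjusted p = 0.0403, adjusted p = 1.00). Its call was lost without control replicate 1, control replicate 2, cKO replicate 1 or cKO replicate 2. *Rbpj*, which encodes the DNA-binding factor of the pathway, had 15.2 ± 4.35 and 12.3 ± 1.69 TPM (SD, n = 3). *Tle5* had 218 ± 39.8 and 228 ± 18.8 TPM, and the Groucho corepressor *Tle3* had 58.3 ± 4.87 and 44.99 ± 10.95 TPM. *Hdac3* was the single gene of the list whose groups did not overlap, at 46.9 to 47.4 TPM in control and 48.5 to 53.9 TPM in cKO. Of all tested genes 3.51% had every cKO library higher and 6.13% every cKO library lower.

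*Spen*, *Rreb1* and *Zeb1* have long transcripts, of 12299, 9702 and 5801 bases. After the correction for length and GC content their log2 fold changes were -0.34, -0.36 and -0.67, with unadjusted limma p of 0.141, 0.0541 and 0.0523, so none stayed called. The list medians then were -0.04 for the core complex, -0.08 for the recruiting factors and 0.03 for the Notch corepressors, beside 0.00 for all genes. They were 0.02 for the genes that CtBP represses in other cells, 0.14 for the ribbon synapse genes and -0.03 for the hydroxyacid dehydrogenases. *Ctbp2* was at -1.01 on that scale.

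Of 13 genes that CtBP is known to repress in other cells, 11 were tested, 4 were higher and 7 lower in cKO, and 0 were called, with 0 at an unadjusted p under 0.05 and a median of -0.11. The balance turned with the length and GC correction, to 6 higher and 5 lower with a median of 0.02. The epithelial cadherin gene *Cdh1* had 169 ± 34.7 TPM in control and 147.96 ± 28.92 TPM in cKO (SD, n = 3). *Perp*, a desmosome and p53 target gene, had 795 ± 110 and 828 ± 70.2 TPM, and the cell cycle inhibitor *Cdkn1a* had 452 ± 45.2 and 428 ± 122 TPM. The keratin gene *Krt18* had control values of 14.49, 9.84 and 11.41 TPM and cKO values of 14.65, 20.2 and 15.87 TPM. Its groups did not overlap by a narrow margin, and its log2 fold change was 0.48 with an unadjusted p of 0.0613 by limma. *Krt18* was called higher with quantile normalization, median-ratio scaling, the length and GC correction with or without the block, and without control replicate 1. *Jup*, the lowest of the list, had 70.9 ± 9.30 and 54.7 ± 11.9 TPM and a log2 fold change of -0.38 (limma, unadjusted p = 0.105). It was called lower without cKO replicate 3. The tight junction gene *Ocln* was lower in every cKO library and the apoptosis gene *Bax* higher, with log2 fold changes of -0.29 and 0.22. Of the 11 genes 1 was lower and 2 were higher without overlap, as against 6.13% and 3.51% of all tested genes. The related hydroxyacid dehydrogenases *Phgdh* and *Grhpr*, which do not act as corepressors, had log2 fold changes of -0.06 and 0.00.

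**Figure D4:**
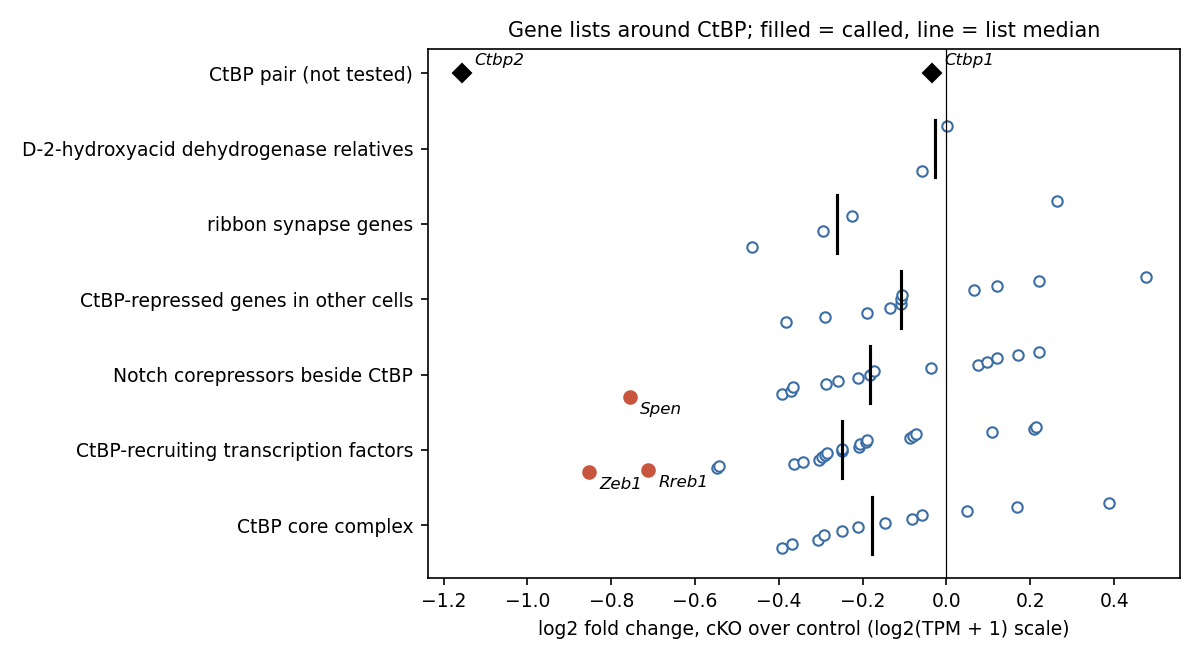
Log2 fold change of cKO over control on the log2(TPM + 1) scale for each tested gene of the 6 lists around CtBP, with the pair on top. Open circles are genes that were not called, filled circles are *Spen*, *Rreb1* and *Zeb1*, and vertical lines are list medians, which lie between -0.26 and -0.03 while *Ctbp2* lies at -1.16.

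The genes with the pattern most like that of each paralog were named by Pearson's r over the 6 libraries on log2(TPM + 1), as a description. For *Ctbp2* these were *Rinl* (r = 0.986), *Thada* (0.985), the kinase gene *Jak3* (0.976), the endothelial receptor gene *Adgrl4* (0.970) and the phosphatase gene *Dusp4* (0.967), all of which were far lower in level. *Dusp4* had control values of 3.57, 3.52 and 3.22 TPM and cKO values of 1.48, 1.44 and 1.43 TPM, and *Rinl* had 1.44, 1.33 and 1.31 TPM against 0.77, 0.87 and 0.72 TPM. All 5 separated the groups, which the choice by likeness to *Ctbp2* favors. Their deviations from the group means correlated with those of *Ctbp2* at 0.69 for *Rinl*, 0.82 for *Thada*, 0.52 for *Jak3*, 0.48 for *Adgrl4* and -0.37 for *Dusp4*. For *Ctbp1* they were *Tmem213* (r = 0.989), *Srd5a3* (0.985), *Fam192a* (0.984), the keratin gene *Krt80* (0.982) and *Spats2* (0.981), each with cKO replicate 1 as the lowest library. The paralogs themselves had an r of 0.16, and 0.05 within groups.

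The libraries were checked against marker genes of the labelled tissue. The enamel matrix gene *Amelx* took 16.5% to 20.6% of the summed TPM in control and 8.65% to 18.1% in cKO, where replicate 2 stood apart. Of all tested genes 60.3% were lower in cKO, 4.02% were called, 2.47% were called lower, and 6.13% were lower without overlap. Of 8 epithelial markers 7 were lower in cKO and 0 were called. The enamel matrix gene *Ambn* had 32216 ± 829 TPM in control and 19824 ± 9787 TPM in cKO (SD, n = 3) without overlap, a log2 fold change of -0.86 (limma, unadjusted p = 0.0766), and was called lower in both fits that used the replicate block and without cKO replicate 3. The odontoblast gene *Dspp* was also present, at 352 to 1302 TPM. The collagen genes *Col1a1* and *Col1a2* had the highest control means of the 6 odontoblast and mesenchyme markers, 2251 and 1397 TPM. Their log2 fold changes were 0.08 and 0.03. Of these 6 markers 3 were higher and 3 lower in cKO, and 0 were called. Without control replicate 3, *Dspp* and *Pdgfra* were called lower. Of 2 immune and 3 neural and glial markers tested 0 were called, and 0 of 4 muscle markers reached the level for testing. The 4 endothelial markers summed to 44.1 to 76.2 TPM in control and 32.1 to 51.7 TPM in cKO and all were lower, with *Cdh5* and *Tek* called, and none of the 4 was at 0. *Cdh5* lost its call in 7 and *Tek* in 8 of 15 alternatives, both of them with the length and GC correction (unadjusted p = 0.0624 and 0.0617) and without control replicate 1, cKO replicate 1 or cKO replicate 2. *Cdh5* also lost it without control replicate 3, and *Tek* without control replicate 2 or cKO replicate 3. Of 4 erythroid markers, all lower, *Hbb-bs* was called, and its reads may be split with those of *Hbb-bt*. This call was lost in 6 of 15 alternatives, among them those without control replicate 1, control replicate 3, cKO replicate 1 or cKO replicate 3. Other endothelial and erythroid markers gained calls, all lower. *Kdr* was called with the block and without control replicate 2 or cKO replicate 3, and *Pecam1* without control replicate 2. *Hbb-bt* was called with the length and GC correction, and with *Hba-a1* without control replicate 2. All 4 erythroid markers were called with the correction and the block. Ribosomal RNA genes summed to 1363 to 3283 TPM in control and 8400 to 16291 TPM in cKO. The erythroid markers summed to 886 to 1164 TPM in control and 687 to 851 TPM in cKO. The endothelial sums overlapped, with cKO replicate 3 above control replicate 2, whereas the erythroid sums were lower and the ribosomal RNA sums higher in every cKO library. The part of these genes and of the epithelial markers in the difference of *Ctbp2* was not tested. Without cKO replicate 2 the log2 fold change of *Ctbp2* was -1.25.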

How the data were processed

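RNA of M1 dental epithelium was sequenced from libraries made with a TruSeq kit. After read trimming the authors used HISAT2 for alignment, and for abundance RSEM per the methods but StringTie per the submitters' processing notes. They deposited TPM per gene in 6 libraries. The methods name FPKM, but each library sums to between 983952 and 993946, as TPM do. The build and annotation are not given in the sources used here. Of the gene identifiers 99.4% matched GENCODE vM21 (GRCm38), used for positions and transcripts, and start windows came from RefSeq. Groups and replicate numbers came from the sample labels.

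log2(TPM + 1) of genes averaging at least 1 TPM was fitted with limma 3.58.1 (lmFit and eBayes with a trend) in R 4.3.3 without a block. The fit was tested on simulated data. A scale with a pseudocount understates the change of low genes. *Ctbp1* and *Ctbp2* got no test. Reference genes lay within 0.5 (log2 control level) or 0.25 (log2 length) of a member. The length and GC correction used splines of 4 degrees of freedom. The named genes are the pair, *Wnt10a*, every called gene and the 2 genes highest in control of each list, the 5 genes most like each member, and the overlapping and nearest genes. Other genes were named after their values were seen. The members and lists were chosen with earlier results of these data known. Alternatives were a pseudocount of 0.1, no filter, other scalings, the length and GC correction, no trend, the replicate number as a block and leaving out each library. Depth is unknown, and the number of libraries limits precision.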

Additional observations from a re-analysis of the deposited data

How the results depend on the processing

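Over 15 alternatives the log2 fold change of *Ctbp2* kept its direction and moved by less than the spread between replicates (-1.25 to -1.01), as did its difference from *Ctbp1* (-1.21 to -0.96). Leaving out 1 library gave -1.25 to -1.08 for *Ctbp2*, -0.11 to 0.07 for *Ctbp1* and -1.21 to -0.96 for the difference. *Ctbp1* moved from -0.04 to 0.12 with the length and GC correction, with or without the replicate block.

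The count of genes called, 552 (213 higher and 339 lower), became 940 without a filter, 1315 under the replicate block and 1110 under both the block and the length and GC correction. The split was 324 higher and 325 lower with quantile normalization, 314 and 334 with median-ratio scaling, 334 and 285 with the length and GC correction, and 104 and 652 when scaled to coding genes other than *Amelx* and *Ambn*. Leaving out 1 library gave 204 (without cKO replicate 1) to 1159 (without control replicate 3), with 237 without control replicate 1, 282 without cKO replicate 2 and 951 without cKO replicate 3. The count by adjusted p, 2, was 4 with a pseudocount of 0.1 TPM, quantile normalization or the block, 1 with no filter or with the block and the correction, and 0 (756 at an unadjusted p under 0.05) when scaled to protein-coding genes. It was 2 to 9 when 1 library was left out. The 3 calls over the 6 CtBP lists became 5 (2 higher) with quantile normalization, 1 (higher) with the correction, 3 (all higher) with the correction and the block, and 0 to 7 when 1 library was left out. The block gave 4 calls over the lists, with *Otof* lower as the added one. The median log2 fold change of all genes, -0.07, became -0.12 with the protein-coding scale, -0.18 without control replicate 3 and -0.16 without cKO replicate 2. *Fgfr2* lost its call with quantile normalization (unadjusted p = 0.0616) and median-ratio scaling (0.0582), and the cause was not tested for any of these changes.

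The methods speak of pairs of biological replicates but do not say which libraries form a pair. Same-numbered libraries deviated from their group means with correlations across genes of -0.08, 0.29 and 0.40. The deposited column names skip the same number in both groups, but they do not say that equal numbers form a pair. The correlations differ in sign, so the main fit did not take the numbers as a pairing, and whether they are one stays unsettled. With the block the log2 fold changes were unchanged, -1.16 for *Ctbp2* and -0.04 for *Ctbp1*, since each number holds 1 library of each group.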

Other observations

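Genes of the ribbon synapse, where the long product of *Ctbp2* acts, were read as a further list. Of 8 genes 4 averaged at least 1 TPM, 0 were called, and 0 had an unadjusted p under 0.05 by limma. The replicate block called *Otof* lower, and the block with the length and GC correction called *Rims1* higher. With that correction the list median went from -0.26 to 0.14, with 3 genes higher and 1 lower. *Otof*, which encodes the vesicle fusion protein otoferlin of hair cells, had control values of 45.39, 82.61 and 45.13 TPM and cKO values of 32.77, 43.54 and 44.31 TPM. The groups did not overlap, by less than 1 TPM at the closest, and 6.13% of all tested genes were likewise lower without overlap. The log2 fold change of *Otof* was -0.46 with a standard error of 0.27 (limma, unadjusted p = 0.129). Corrected for its transcript of 7419 bases and for GC content, the log2 fold change was -0.13. *Otof* was higher in TPM than *Ctbp2* in all 6 libraries. The scaffold gene *Bsn* differed among libraries of the same group, with control values of 6.14, 5.08 and 0.02 TPM and cKO values of 2.25, 7.27 and 0.03 TPM. *Pclo* and *Rims1* were between 1.24 and 4.28 TPM, and *Rims2*, *Cplx3*, *Cacna1f* and *Slc17a8* had means below 1 TPM.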
